A study of Mus musculus with 39 samples.

Results

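Cerebellar granule cells were followed over the last step of their maturation in the mouse, from postnatal day 12 (P12) to P21, in 10 of the 39 libraries of the series: 5 libraries from P12 and 5 from P21, chosen by their labels. All 10 come from translating ribosome affinity purification (TRAP) of whole cerebellum from C57Bl/6J mice that carry the transgene Tg(NeuroD1-Egfp-L10a). This transgene makes ribosomal protein L10a tagged with EGFP under Neurod1 control, and antibody beads against GFP pull the tagged ribosomes out of the lysate with the RNA bound to them. Polyadenylated RNA from the beads was sequenced as 75-bp single-end reads. The remaining TRAP libraries, 5 from the same line at P7 and 4 from progenitors isolated at P7 from Tg(Atoh1-Egfp-L10a) mice, entered the fit to share its estimate of spread and gave the earlier step from P7 to P12. There is 1 input library of unselected cerebellar RNA at each age. The labels give no further treatment or allele, no sex, and no statement that the 5 libraries of an age are separate animals, so the p-values measure the spread between libraries, which may be technical. Any cell in which the Neurod1 transgene is active can add RNA, and in such bulk samples fewer cells of a type and less RNA per cell cannot be told apart.

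Granule cells are the small glutamatergic neurons whose axons, the parallel fibres, synapse on Purkinje cells. They are born from Atoh1-positive progenitors in the external granule layer after birth, extend their axons, migrate inward along Bergmann glia, and then form dendritic claws that receive mossy fibre and Golgi cell input. During this last phase they are known to exchange embryonic receptor and channel subunits for adult ones, among them GluN2C of the NMDA receptor and the alpha6 and delta subunits of the GABA-A receptor that carry tonic inhibition.

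Levels are CPM, counts scaled to a common library total with TMM factors, given for libraries 1 to 5 in order or as mean ± SD (n = 5 libraries per age). Changes are log2 fold changes of P21 over P12 from edgeR's quasi-likelihood test over all 14759 genes that passed the filter on low counts. Their standard error (SE) is the size of the change divided by the square root of the test's F value. A gene is called where the Benjamini-Hochberg adjusted p over those genes is under 0.05, and "rose" and "fell" are used only of called genes. Total counts ran from 22518913 to 38546538 at P12 and from 27530503 to 37244425 at P21. Markers of the label's cell type were higher in the Neurod1 TRAP libraries than in the inputs: 12 markers of mature granule cells summed to 11814 to 12778 CPM at P12 and 20794 to 21958 CPM at P21, against 6061 and 8717 CPM in the inputs. The 12 include Neurod1, under whose control the tag is made, and Calb2, also a marker of unipolar brush cells. Input CPM come from a separate scaling of 18 libraries, the Neurod1 TRAP libraries and the inputs. Within P21, libraries 2 and 3 stood apart from 1, 4 and 5 on the second principal component (4.68% of the variance, against 78.8% for the first, which separated the ages). Ttr, the choroid plexus carrier of thyroid hormone, was at 29.5, 19.7, 0.333, 58.4 and 0.0344 CPM in the P12 libraries and 0.117, 132, 102, 0.311 and 0.354 CPM in the P21 libraries. It was high in P21 libraries 2 and 3 and in P12 libraries 1, 2 and 4 and near 0 in the other 5. Scg5, a chaperone of secretory granules, was at 553, 184, 175, 627 and 667 CPM in the P21 libraries, and libraries 2 and 3 lay below every P12 library (218, 253, 230, 214 and 333 CPM). Its rise (adjusted p = 0.036) lost its call in 7 of the 10 fits that left out 1 library. Results that rest on P21 libraries 2 and 3 are given with and without them.

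Between P12 and P21, 4784 genes rose (32.4% of those tested) and 4821 fell (32.7%), and the values of P12 and P21 did not overlap for 8206 (55.6%). Many changes were small: 4519 of the 9605 called genes changed by less than 1.5-fold. Changes of at least 2-fold leaned downward, with 860 genes higher (5.83%) and 1779 lower (12.1%), and the lean grew with size: 113 genes were at least 4-fold higher and 721 at least 4-fold lower, and 1 was at least 16-fold higher against 158 lower. That 1 gene, named after its value was seen, is Eif4a3l1, a near-identical copy of Eif4a3 whose reads the counting could have split, with P12 and P21 values that overlap. No gene went from under 0.5 CPM in every P12 library to at least 5 CPM in every P21 library, while 17 did the reverse, among them Top2a, Mki67, Ccnb1, Cdk1, Pbk, Uhrf1, Tox3, Pimreg, Tes and Spc25. Genes at least 2-fold higher took 4.26% ± 0.17 of the counts at P12 and 9.81% ± 0.16 at P21, and those at least 2-fold lower 7.59% ± 0.3 and 2.24% ± 0.091. With scaling by library size alone the median of all genes moved by -0.15 on the log2 scale, and 3449 genes rose and 6222 fell, so that the share of called genes that rose was 35.7% rather than 49.8%. Directions below are relative to TMM scaling, and a list whose balance turns under library size alone is given with both counts. Each count of list members that rose or fell is to be read against the 32.4% and 32.7% over all genes: a share near these says nothing particular about the list.

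**Figure D1:**
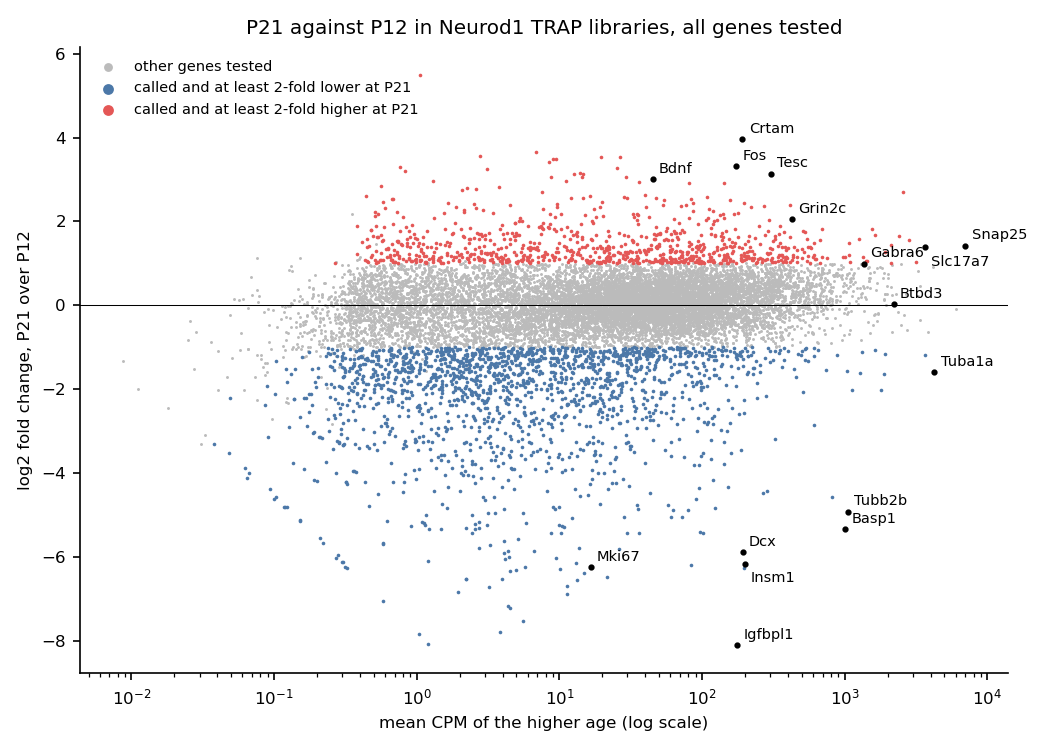
Log2 fold change of P21 over P12 for each of the 14759 genes tested, against the mean CPM of the age with the higher mean (log axis); coloured points are called genes at least 2-fold higher (860) or lower (1779). Falls reach further from 0 than rises, down to -8.10 for Igfbpl1 against 3.96 for Crtam among the labelled genes.

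The largest gain in share was in Snap25, the SNARE protein of synaptic vesicle fusion, which stood at 2835, 2733, 2478, 2474 and 2645 CPM in the P12 libraries and 7315, 6353, 6868, 7149 and 7427 CPM in the P21 libraries. Every P21 library lay above every P12 library, and the gene rose (log2 fold change 1.42, SE 0.09, adjusted p = 1.6e-11). Slc17a7, the vesicular glutamate transporter VGLUT1, Cbln1, the parallel fibre organiser secreted onto Purkinje cell spines, and Chn2, a GTPase-activating protein of Rac, were also among the 10 largest gains, at 1394 to 3639 CPM, 2219 to 4186 CPM and 963 to 2843 CPM in the means. Gas7, Tubb4a, Snurf, Grm4 and Cox8a were others. The 10 largest losses were Tuba1a (4253 to 1406 CPM) and the further tubulins Tubb2b and Tubb5, the actin Actg1 (1877 to 601 CPM) and the actin-binding Tmsb4x (1800 to 446 CPM), the growth cone protein Basp1, the histone genes H3f3a and H3f3b, Ptma and the elongation factor Eef1a1.

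Among called genes with at least 10 CPM in the higher age and no overlap between the ages, the largest rise by fold was in Crtam (mm10, chromosome 9, 40972798 to 41004628), an immunoglobulin superfamily adhesion molecule, at 9.04, 17.2, 9.41, 11.3 and 15 CPM in the P12 libraries and 209, 190, 116, 233 and 212 CPM in the P21 libraries. The ages did not overlap and the mean rose 15.5-fold (log2 fold change 3.96, SE 0.25, adjusted p = 6.6e-11). Tesc, a calcium-binding protein that regulates the sodium-proton exchanger NHE1, rose 8.82-fold with little spread, from 34.3 ± 1.87 to 302 ± 12.8 CPM (log2 fold change 3.14, SE 0.08, adjusted p = 4.8e-18). Under the same limits the other genes of the 15 largest rises were the transcription factors Scx (1.71 to 19.7 CPM), Atoh7 (1.47 to 12.6 CPM) and Irx3 (3.51 to 29.1 CPM), the calcium sensor Cabp2 (2.33 to 26.7 CPM), the channel Aqp6, the kinase Tssk5, Prr16, Stap2, Layn, the transporter Slc16a11, Bdnf, Fos and Nr4a1. In the inputs Tesc was at 10.1 and 52.9 CPM at P12 and P21 and Crtam at 4.64 and 60.4 CPM. The largest fall under those limits was in Igfbpl1 (mm10, chromosome 4, 45809507 to 45826827), a secreted protein of the insulin-like growth factor binding family, at 112, 191, 234, 177 and 168 CPM in the P12 libraries and 0.467, 0.971, 0.941, 0.528 and 0.295 CPM in the P21 libraries. It fell 276-fold (log2 fold change -8.10, SE 0.32, adjusted p = 6.1e-14) and the ages were far apart. Tox3, Cd24a, the early neuron factors Nhlh1 and Insm1, Dcx, Uhrf1, Pimreg, Pbk, Top2a, Ccnb1, Aurkb, Mki67, Pclaf and Cdk1 made up the other 14 of the 15 largest falls under those limits, the last 8 of them genes of mitosis or DNA replication.

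Other genes held their level relative to TMM scaling. For 1372 genes the 95% interval of the change lay within 1.2-fold of 0 change, and the most abundant of them were Btbd3, which directs dendrites toward active axons (from 2152 ± 106 to 2202 ± 143 CPM), the prolyl isomerase Ppia, the fusion clamp Cplx1 (from 1728 ± 25.4 to 1874 ± 77.1 CPM), Ckb, Ywhaz, Ubb, Mrfap1, Gnb1, Ywhag and Cadps2, a factor of dense-core vesicle release (from 917 ± 61 to 854 ± 41.7 CPM). Of these 10, Ckb rose and Ywhaz and Gnb1 fell by amounts inside that band (0.14, -0.14 and -0.16). With scaling by library size alone Ckb changed by -0.01, and Ywhaz (-0.30), Gnb1 (-0.31), Ywhag (-0.23) and Cadps2 (-0.26) were called lower. Btbd3, Ppia, Cplx1, Ubb and Mrfap1 were not called under that scaling. The count of 1372 thus holds for TMM scaling only.

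Proliferation genes fell. Of 20 cell cycle and DNA replication genes 19 fell, 17 of them at least 2-fold, and 0 rose (median log2 fold change -3.96, against 0.00 over all genes). Top2a, the topoisomerase that untangles replicated DNA, was at 19.8, 19.3, 23.5, 23.1 and 21 CPM in the P12 libraries and 0.194, 0.335, 0.188, 0.249 and 0.206 CPM in the P21 libraries. No P21 library came near the P12 range, and the change was -6.49 (SE 0.20, adjusted p = 8.9e-17). Cdk1, Ccnb1 and Aurkb, which drive mitosis, changed by -5.79, -6.38 and -6.30, and the cyclin Ccnd2 by -5.43. Pcna (85.4 to 64.1 CPM) and Ccnd1 (38.9 to 33.3 CPM, adjusted p = 0.16), which also serve DNA repair and growth, moved least: Pcna fell and Ccnd1 did not pass the test. Among 14 progenitor and Sonic hedgehog genes 9 fell and 2 rose. Atoh1 was at 3.34, 4.42, 9.53, 5.98 and 4.37 CPM at P12, and the 5 P21 libraries held 4 counts in all. Mycn (25 to 1.32 CPM), Gli2 (7.01 to 0.633 CPM) and Smo (20.1 to 3.97 CPM) fell, while the hedgehog receptors Ptch1 (from 98.9 ± 8.29 to 142 ± 22.7 CPM) and Boc (from 69.7 ± 6.5 to 114 ± 10.3 CPM) rose. The cell cycle genes were also lower in the input library at P21, 16 of 20 by at least 2-fold.

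Promoter letters were looked up for some of the gene lists, and 2 of these lists held CCAAT boxes more often than all tested genes. The windows are from RefSeq (GRCm38.p6), 250 bases before to 50 bases after the first start listed for a gene, and 11646 tested genes had one. A CCAAT box (letters CCAAT, either strand), bound by NF-Y, stood in 13 of 16 windows of the cell cycle list and 14 of 15 of the cholesterol synthesis list, against 38.9% of all tested genes. Lists that mostly rose did not share this: it stood in 4 of 16 windows of the immediate early and activity list (25%). In the respiratory chain list it stood in 10 of 33 (30.3%). The cell cycle homology region (CHR, letters TTTGAA, either strand), bound by the DREAM and MuvB complexes, stood in 6 of the 16 and in 11.7% of all. Cdk1 and Top2a are shown for the cell cycle, Hmgcs1 for cholesterol synthesis, and Gabra6, with 2 CpG in 250 bases, for a granule cell gene that rose. Each run is the 250 bases before the start, 5′ to 3′ on the gene's strand, and capitals mark CCAAT boxes, CHR letters in Cdk1 and Top2a, and in Hmgcs1 the sterol response letters TCACCCCAC, which 1 of the 15 cholesterol windows held (0.55% of all). The E2F letters TTCCCGCC stood in 1 of the 16 cell cycle windows (4.12% of all).
Cdk1, chr10:69352913-69353162, minus strand: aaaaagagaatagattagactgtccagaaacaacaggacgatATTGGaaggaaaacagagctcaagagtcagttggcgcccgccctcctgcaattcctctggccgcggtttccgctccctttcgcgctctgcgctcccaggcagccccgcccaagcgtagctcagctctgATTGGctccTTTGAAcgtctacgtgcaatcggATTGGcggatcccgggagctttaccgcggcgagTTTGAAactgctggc
Top2a, chr11:99024190-99024439, minus strand: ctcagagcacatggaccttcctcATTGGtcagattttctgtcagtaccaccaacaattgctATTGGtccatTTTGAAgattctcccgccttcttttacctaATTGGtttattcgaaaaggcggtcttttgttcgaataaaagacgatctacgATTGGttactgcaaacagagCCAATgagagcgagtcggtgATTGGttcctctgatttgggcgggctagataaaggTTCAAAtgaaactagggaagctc
Hmgcs1, chr13:119690101-119690350, plus strand: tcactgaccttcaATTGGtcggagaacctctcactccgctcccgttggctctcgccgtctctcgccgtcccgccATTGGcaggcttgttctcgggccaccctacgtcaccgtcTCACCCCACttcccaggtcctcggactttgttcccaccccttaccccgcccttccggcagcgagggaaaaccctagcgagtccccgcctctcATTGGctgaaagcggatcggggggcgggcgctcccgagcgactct
Gabra6, chr11:42321073-42321322, minus strand: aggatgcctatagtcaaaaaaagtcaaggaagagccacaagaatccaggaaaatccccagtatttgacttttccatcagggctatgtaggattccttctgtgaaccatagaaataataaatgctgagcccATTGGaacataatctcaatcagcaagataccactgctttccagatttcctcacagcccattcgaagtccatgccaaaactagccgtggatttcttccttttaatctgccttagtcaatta
A match describes letters and is no measured binding. Over the broader classes CCAAT was in 35.4% of windows of genes at least 2-fold higher and 40.9% of those at least 2-fold lower, CHR in 12% and 15.9%, the AP-1 letters TGANTCA in 6.4% and 4.33% (all genes 4.61%), the cAMP response letters TGACGTCA in 2.5% and 1.98% (all genes 3.27%), the E-box CAGCTG in 16.7% and 19.2% (all genes 15.2%) and the D-box TTATGTAA, read by Dbp, Tef and Hlf, in 1.72% and 0.66% (all genes 0.541%).

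Genes of the growing cytoskeleton fell. Of 25 doublecortin, stathmin and microtubule-associated genes 17 fell and 2 rose (17 and 5 without P21 libraries 2 and 3). Dcx, the microtubule protein of migrating neurons, stood at 196, 167, 185, 214 and 204 CPM in the P12 libraries and 2.92, 4.45, 3.11, 3.26 and 2.53 CPM in the P21 libraries. The ages were separate in every library, a 59.4-fold fall (log2 fold change -5.89, SE 0.13, adjusted p = 3.4e-19). Its partners in the growing neurite fell as well: Marcksl1 (821 to 34.4 CPM), the collapsin response mediators Dpysl3 (286 to 13.2 CPM) and Dpysl5 (121 to 19.4 CPM), the kinesin Kif21b (119 to 6.69 CPM), Stmn1 (1325 to 608 CPM), Mapt (611 to 303 CPM) and Map2 (183 to 84.7 CPM). Basp1, an abundant growth cone protein outside that list, stood at 860, 1061, 1127, 1011 and 964 CPM in the P12 libraries and 17.1, 37.9, 32.1, 19 and 17.5 CPM in the P21 libraries, and it fell 40.7-fold. Gap43, often taken as its companion in growth cones, did not pass the test (from 656 ± 24.7 to 701 ± 58 CPM, adjusted p = 0.2), nor did Dclk1 (from 491 ± 42.9 to 530 ± 55.6 CPM) or the motors Kif5a and Kif5c. Without P21 libraries 2 and 3, Dclk1, Kif5a and Kif5c rose by 0.20, 0.27 and 0.20 (edgeR, adjusted p = 0.038, 0.018 and 0.033). With library size alone they changed by -0.04, -0.03 and -0.00 and were not called. Stmn3 (914 to 1226 CPM) and Map4 (419 to 570 CPM) rose.

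Tubulin changed in make-up. Tubb2b, whose product enriches in young neurons, was at 963, 1047, 1153, 1100 and 1021 CPM in the P12 libraries and 33, 46.4, 38, 29.7 and 27 CPM in the P21 libraries, a 30.4-fold fall without overlap (log2 fold change -4.92, SE 0.12, adjusted p = 1.3e-18), and Tubb2a, Tubb3, Tubb5 and Tuba1a fell, with changes of -2.03, -1.71, -1.62 and -1.60 on the log2 scale. Tubb4a, the beta tubulin of mature axons and myelin, rose (log2 fold change 1.02, SE 0.07, adjusted p = 1.9e-11), as did Tuba4a (444 to 774 CPM). Per kilobase of annotated exon, Tubb4a was 25.3% ± 1.9 at P12 and 71.1% ± 0.82 at P21 of the 7 beta tubulins measured, and Tubb2b was 17.5% ± 0.76 at P12 and 0.805% ± 0.18 at P21. Tuba1c, a close copy of Tuba1a and Tuba1b, is uncertain: it ran from 7.41 to 83.6 CPM within P12.

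Guidance and contact molecules followed. Of 30 axon guidance receptors and ligands 19 fell, 13 of them at least 2-fold, and 4 rose. Robo2, a Slit receptor, was at 84.2, 88.2, 89.9, 100 and 98.8 CPM in the P12 libraries and 8.79, 14.4, 14.6, 10.2 and 9.9 CPM in the P21 libraries, with no overlap (log2 fold change -2.99, SE 0.14, adjusted p = 5.3e-14), and Robo1 fell from 21.3 to 11.9 CPM. The netrin receptors split: Dcc (10.2 to 1.92 CPM), Unc5c (77 to 27.8 CPM) and Neo1 (88.7 to 38.1 CPM) fell while Unc5a rose (from 18.2 ± 1.5 to 48.3 ± 2.75 CPM). Sema6a and its receptor Plxna2, which steer granule cell migration, fell (111 to 33.4 CPM and 86.7 to 34.1 CPM), as did the ephrins Efnb1, Efnb2 and Efnb3. In the migration and adhesion list 15 of 25 fell and 3 rose. L1cam (123 to 53.3 CPM), Cntn2, the TAG-1 protein of young parallel fibres (430 to 224 CPM), Astn1, the neuronal ligand for glia-guided migration (73 to 35.8 CPM), and Tenm2 (26.5 to 7.18 CPM) fell. Pard6a, a polarity protein that moves the centrosome of migrating granule cells, rose against that direction (from 81.1 ± 3.21 to 187 ± 17.6 CPM), with Cntn6 (12.7 to 29.1 CPM) and Cadm3 (1287 to 1649 CPM), while Astn2 (from 120 ± 7.87 to 118 ± 9.95 CPM, adjusted p = 0.9) did not pass the test.

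Transcription factors of the young neuron fell without exception in direction among those called, 23 of 30 lower and 0 higher. Insm1 was at 151, 203, 245, 208 and 187 CPM in the P12 libraries and 2.22, 4.08, 3.26, 1.93 and 2.42 CPM in the P21 libraries, and the ages did not overlap (log2 fold change -6.16, SE 0.16, adjusted p = 8.8e-18). Sox11 (96.7 to 2.28 CPM), Sox4 (142 to 10.3 CPM), Ebf3 (62.7 to 2.12 CPM) and Nhlh1 (83.5 to 1.15 CPM) fell at least 8-fold as well. Factors that mark granule cell identity fell by far less: Neurod1 (from 2468 ± 74.7 to 1793 ± 231 CPM, log2 fold change -0.46, SE 0.08, adjusted p = 2.7e-05), Pax6 (320 to 220 CPM), Zic1 (1611 to 1373 CPM) and Zic2 (819 to 559 CPM). Neurod2 (from 677 ± 31.2 to 686 ± 64.8 CPM) and Barhl2 (from 186 ± 11.8 to 210 ± 24 CPM) did not pass the test. The pull-down uses a transgene under Neurod1 control, and the part of the fall of Neurod1 in the other changes was not tested.

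Of 28 factors linked to later granule cells 12 rose and 10 fell (11 and 11 with scaling by library size alone). The nuclear factor I family, whose members bind the same palindrome and act in granule cell maturation, moved apart. Nfic rose (from 285 ± 6.6 to 571 ± 19.4 CPM, log2 fold change 1.00, SE 0.06, adjusted p = 1.9e-12), while Nfib (from 502 ± 38.8 to 236 ± 34 CPM), Nfia (from 207 ± 11.9 to 126 ± 16 CPM) and Nfix (from 982 ± 32.3 to 603 ± 24.9 CPM) fell. Per kilobase Nfic was 16.3% ± 0.8 at P12 and 40.4% ± 1.1 at P21 of the 4 members and Nfib 20.6% ± 0.95 at P12 and 11.9% ± 1.2 at P21. Hlf, a PAR bZIP factor, had the largest rise of the list and stood at 17.9, 13.2, 14.3, 15.8 and 17.5 CPM in the P12 libraries and 54.3, 57.2, 53.9, 63.3 and 53.4 CPM in the P21 libraries, without overlap (log2 fold change 1.84, SE 0.10, adjusted p = 4.6e-13). Its relatives Dbp (from 72.4 ± 4.78 to 200 ± 22 CPM) and Tef (from 296 ± 17.2 to 548 ± 18.4 CPM) rose, as did Esrra, a regulator of mitochondrial genes (97.5 to 186 CPM), Camta2 and Etv1. Its relative Etv5 (88.6 to 41.7 CPM), the thyroid hormone receptor Thrb (9.57 to 2.43 CPM), Esrrg (58.9 to 29.1 CPM) and Mef2c fell, and Thra (from 1107 ± 46 to 1196 ± 187 CPM) and Rora (from 73.9 ± 6.67 to 83.3 ± 9.82 CPM) did not pass the test.

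Of 26 subunits of the BAF remodelling complex 18 fell and 4 rose, with only 2 falls of at least 2-fold. The paralogues Bcl7a and Bcl7b moved in opposite directions: Bcl7a was at 188, 185, 193, 208 and 196 CPM in the P12 libraries and 78.9, 80.8, 77.4, 83.6 and 79.6 CPM in the P21 libraries, and Bcl7b at 70.9, 68.2, 65.5, 70.2 and 67.1 CPM in the P12 libraries and 158, 166, 162, 154 and 166 CPM in the P21 libraries. Neither gene's ages overlapped (-1.28 and 1.24, adjusted p = 9.1e-16 and 6.2e-13), and Bcl7b was 31.4% ± 1.3 at P12 and 57.9% ± 1.6 at P21 of the 3 paralogues per kilobase. By that measure Bcl7a was 20.3% ± 0.62 at P12 and 6.54% ± 0.33 at P21, and Bcl7c 48.3% ± 1.4 and 35.5% ± 1.7. Actl6a and Smarcc1, subunits abundant in progenitors, fell (29.4 to 15.8 CPM and 47.8 to 26.7 CPM), and the neuronal subunit Actl6b fell slightly (112 to 94.6 CPM). Over all genes 32.7% fell and 32.4% rose, which stands beside each count in this paragraph. Among 27 other remodellers and deacetylases 14 fell and 5 rose, with Hdac2 (229 to 106 CPM) and Chd3 (589 to 373 CPM) lower and Hdac5 (243 to 360 CPM) higher. Of 20 genes of DNA methylation 10 fell and 4 rose: Uhrf1, which guides maintenance methylation in dividing cells, fell to 0.117, 0.335, 0.251, 0.0622 and 0.147 CPM, Dnmt1 fell less (54.2 to 37.3 CPM), and Gadd45b (16.4 to 35.6 CPM) rose. RNA-binding and splicing factors had 22 of 42 lower and 10 higher. Elavl2 (54.4 to 12.7 CPM), Nova2 (139 to 65.6 CPM), Ptbp1 (43.7 to 20 CPM) and Celf2 (316 to 128 CPM) fell, and Rbfox1 (379 to 653 CPM), Rbfox3, the NeuN antigen (1432 to 1981 CPM), and Mbnl1 (29.6 to 57.1 CPM) rose.

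**Figure D2:**
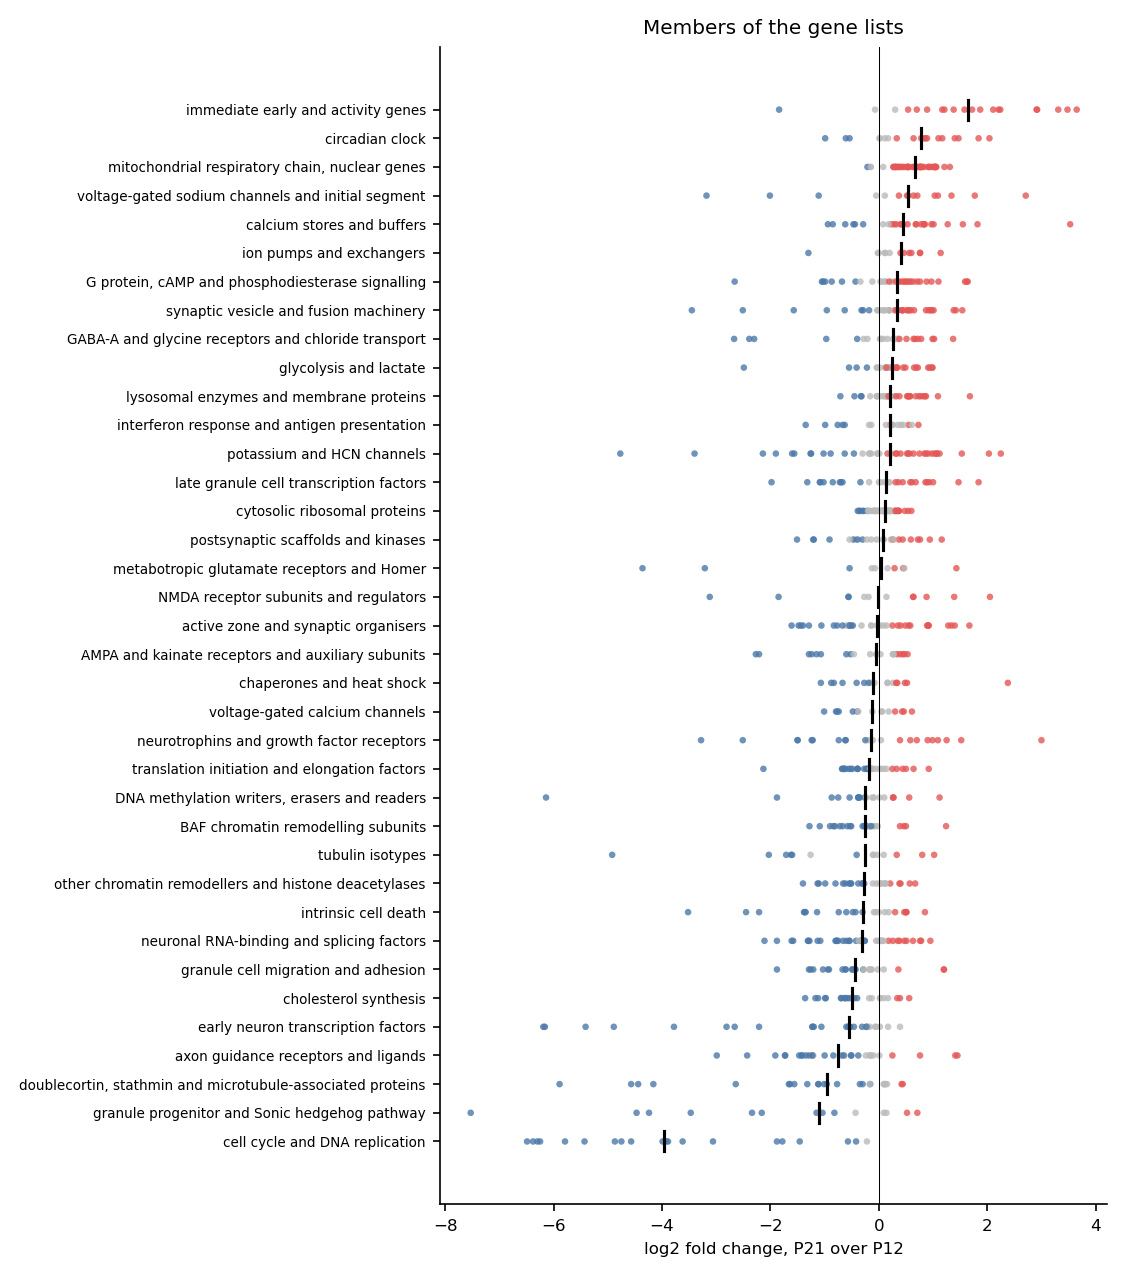
Log2 fold change of P21 over P12 (horizontal axis) for the tested members of each of 37 gene lists, ordered by list median (black bar); red points rose, blue points fell and grey points were not called. Cell cycle genes have the lowest median (-3.96) and immediate early genes the highest (1.65).

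Individual glutamate receptor genes moved in both directions. Of 12 NMDA receptor genes 5 rose and 4 fell, against 32.4% and 32.7% over all genes. Grin2c (mm10, chromosome 11, 115249169 to 115267297) encodes GluN2C, the subunit of mature granule cells, and stood at 102, 116, 91.4, 91.1 and 113 CPM in the P12 libraries and 384, 394, 394, 483 and 473 CPM in the P21 libraries. It rose 4.14-fold without overlap (log2 fold change 2.05, SE 0.18, adjusted p = 4.3e-09). Grin2b, the juvenile subunit, fell from 3.24 to 0.362 CPM and Grin3a from 13.5 to 3.74 CPM, while the obligatory Grin1 (from 197 ± 10.5 to 218 ± 15 CPM, adjusted p = 0.39) did not pass the test. Per kilobase Grin2c made up 95.1% ± 0.57 at P12 and 99.1% ± 0.18 at P21 of the 4 GluN2 genes. The scaffolds of the same complex moved apart, with Dlg4, PSD-95 (615 to 955 CPM), and Dlg1 (39.2 to 103 CPM) higher and Dlg2 (215 to 146 CPM) and Dlg3 (193 to 131 CPM) lower. Of 21 AMPA and kainate receptor genes 8 fell and 5 rose, shares near those over all genes. Among the core subunits Gria2 fell (-0.52) and Gria4 rose (0.33). Stargazin, Cacng2, the auxiliary subunit on which granule cell AMPA receptors depend, rose from 130 to 171 CPM. Its relatives Cacng8 (19.3 to 4.18 CPM) and Cacng4 and the auxiliary Cnih2 (172 to 72.8 CPM) fell.

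Metabotropic receptor genes also moved in both directions. Of 10 metabotropic receptor and Homer genes 3 rose and 3 fell (1 and 4 with library size alone), against 32.4% and 32.7% over all genes. Grm5, coupled to Gq, was at 45.3, 45.8, 39.3, 50.4 and 46.3 CPM in the P12 libraries and 4.74, 5.66, 5.55, 4.2 and 4.39 CPM in the P21 libraries, and its scaffold Homer2 at 95.2, 82.8, 96.8, 109 and 95.7 CPM in the P12 libraries and 4.24, 6.33, 5.27, 4.54 and 3.09 CPM in the P21 libraries. Both fell in every P21 library below every P12 library (-3.21 and -4.36, adjusted p = 1.9e-14 and 5.2e-17). Grm4, the Gi-coupled autoreceptor of parallel fibre terminals, rose from from 785 ± 52.5 to 2113 ± 157 CPM (log2 fold change 1.43, SE 0.21, adjusted p = 6.7e-06). Homer2 went from 22.1% ± 2 at P12 and 1.16% ± 0.27 at P21 of the 3 Homer genes per kilobase, and Homer3 rose slightly (from 70.6 ± 9.06 to 86.2 ± 6.23 CPM).

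Among 23 GABA-A, glycine receptor and chloride transport genes tested 9 rose and 5 fell. Gabra6 (mm10, chromosome 11, 42306437 to 42321072), the alpha6 subunit nearly specific to granule cells, stood at 711, 728, 589, 669 and 729 CPM in the P12 libraries and 1338, 1185, 1353, 1498 and 1449 CPM in the P21 libraries. The ages did not overlap (log2 fold change 0.99, SE 0.28, adjusted p = 0.0048). With DESeq2 in place of edgeR its adjusted p was 0.18, at a log2 fold change of 1.01. Both fits take the spread from all 19 TRAP libraries, those of P7 included. Gabra6 was at 47.9 ± 14.4 CPM in the P7 Neurod1 libraries, 685 ± 59.3 CPM at P12 and 1365 ± 120 CPM at P21. Gabrd, the delta subunit of extrasynaptic receptors, rose (from 116 ± 15.6 to 301 ± 16 CPM), and the subunits of immature neurons Gabra2 (from 20 ± 1.72 to 3.16 ± 0.449 CPM) and Gabra3 (from 12.8 ± 0.738 to 2.58 ± 0.157 CPM) and the glycine receptor Glra2 (from 47.8 ± 1.88 to 9.14 ± 1.47 CPM) fell at least 4-fold. Per kilobase Gabra6 was 84% ± 0.37 at P12 and 86.1% ± 0.51 at P21 of the 6 alpha subunits and Gabra2 1.05% ± 0.12 at P12 and 0.085% ± 0.011 at P21. The chloride extruder Slc12a5 (KCC2) rose (log2 fold change 0.67, SE 0.23, adjusted p = 0.016; 0.061 with DESeq2), and the importer Slc12a2 (NKCC1) rose as well (30 to 42.8 CPM).

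The presynaptic side gained RNA for fusion and lost RNA for some priming factors. Of 36 vesicle and fusion genes 20 rose and 8 fell. Slc17a6, VGLUT2, was at 53.7, 54.9, 49.9, 59 and 56.6 CPM in the P12 libraries and 4.2, 5.39, 5.3, 5.31 and 4.74 CPM in the P21 libraries, and Slc17a7 at 1330, 1486, 1337, 1335 and 1480 CPM in the P12 libraries and 3237, 3526, 3608, 3894 and 3928 CPM in the P21 libraries. The pair moved in opposite directions without overlap (-3.45 and 1.38, adjusted p = 1.2e-13 and 8.2e-08), and VGLUT2 went from 2.77% ± 0.2 to 0.0992% ± 0.0093 of their sum per kilobase. Vamp1 (108 to 315 CPM), Cplx2 (1104 to 2130 CPM), the calcium sensors Syt7 (112 to 212 CPM) and Syt12 (142 to 279 CPM), Syp (962 to 1506 CPM) and Dnm1 (600 to 1099 CPM) rose. Syn3 (63 to 11.1 CPM) and Stx1a (69.3 to 23.3 CPM) fell, and Syn1 (from 222 ± 20.2 to 218 ± 14.8 CPM) and Syn2 did not pass the test. The active zone and organiser list was balanced, 14 of 35 higher and 13 lower (12 and 17 with library size alone). Within it the cerebellins Cbln1 (2219 to 4186 CPM) and Cbln3 (from 513 ± 37 to 1630 ± 113 CPM), their partners the neurexins Nrxn2 (913 to 1696 CPM) and Nrxn3 (173 to 326 CPM), Nptx1 (167 to 439 CPM), Unc13c, the Munc13 of granule cells (115 to 216 CPM), and Rims3 (39.7 to 101 CPM) rose. Unc13a (212 to 125 CPM), Unc13b (20.3 to 7.71 CPM), Erc2 (40.8 to 14.6 CPM) and the latrophilin Adgrl2 (22.2 to 7.3 CPM) fell. Of 25 postsynaptic scaffolds and kinases 8 rose and 7 fell (7 and 9 with library size alone), with Camkk2 (452 to 1007 CPM), Camk2b (514 to 844 CPM) and Shank3 (317 to 477 CPM) higher and Prkcb (654 to 347 CPM) and Shank2 (64.5 to 28.1 CPM) lower.

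Excitability genes were remodelled subunit by subunit. Of 15 sodium channel and initial segment genes 10 rose and 3 fell. Scn3b, the beta subunit of immature neurons, was at 67.1, 75.8, 65.9, 68.2 and 67.8 CPM in the P12 libraries and 5.25, 9.31, 10.4, 6.5 and 6.54 CPM in the P21 libraries and fell (log2 fold change -3.18, SE 0.15, adjusted p = 7e-14). No P21 library reached the range of P12. Among the pore-forming subunits Scn1a (17.4 to 44.1 CPM), Scn2a (119 to 244 CPM) and Scn8a (91.5 to 131 CPM) rose and Scn3a (2.04 to 0.509 CPM) fell.

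Potassium and HCN channel genes had 20 of 40 higher and 12 lower (16 and 16 with library size alone). Kcnq5, a subunit of the M-current, was at 35.1, 37.9, 37.3, 38.2 and 26 CPM in the P12 libraries and 1.09, 1.74, 0.879, 0.715 and 1.92 CPM in the P21 libraries, and it fell without overlap (log2 fold change -4.77, SE 0.24, adjusted p = 2.5e-13). Kcnip4, an auxiliary subunit of A-type channels (from 25.1 ± 2.25 to 120 ± 25.8 CPM), the sodium-activated Kcnt1 (from 31.1 ± 3.55 to 127 ± 9.55 CPM), the G-protein-gated Kcnj9 (from 73.1 ± 2.93 to 211 ± 19.2 CPM), the fast-spiking Kv3 gene Kcnc1 (324 to 637 CPM) and the leak channel Kcnk3 (181 to 379 CPM) rose. Its relative Kcnk9 fell (6.88 to 2.33 CPM), as did Kcnj6 (29.9 to 9.86 CPM) and Kcna6 (28.9 to 14.3 CPM). Calcium channel genes had 4 of 15 higher and 6 lower (1 and 7 with library size alone): the P/Q-type Cacna1a (315 to 431 CPM) and its partner Cacnb4 (205 to 314 CPM) rose, and the R-type Cacna1e (84.4 to 50.6 CPM), the N-type Cacna1b (72.7 to 52.2 CPM), the T-type Cacna1g (147 to 86.2 CPM) and Cacna2d3 (104 to 51.4 CPM) fell.

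**Figure D3:**
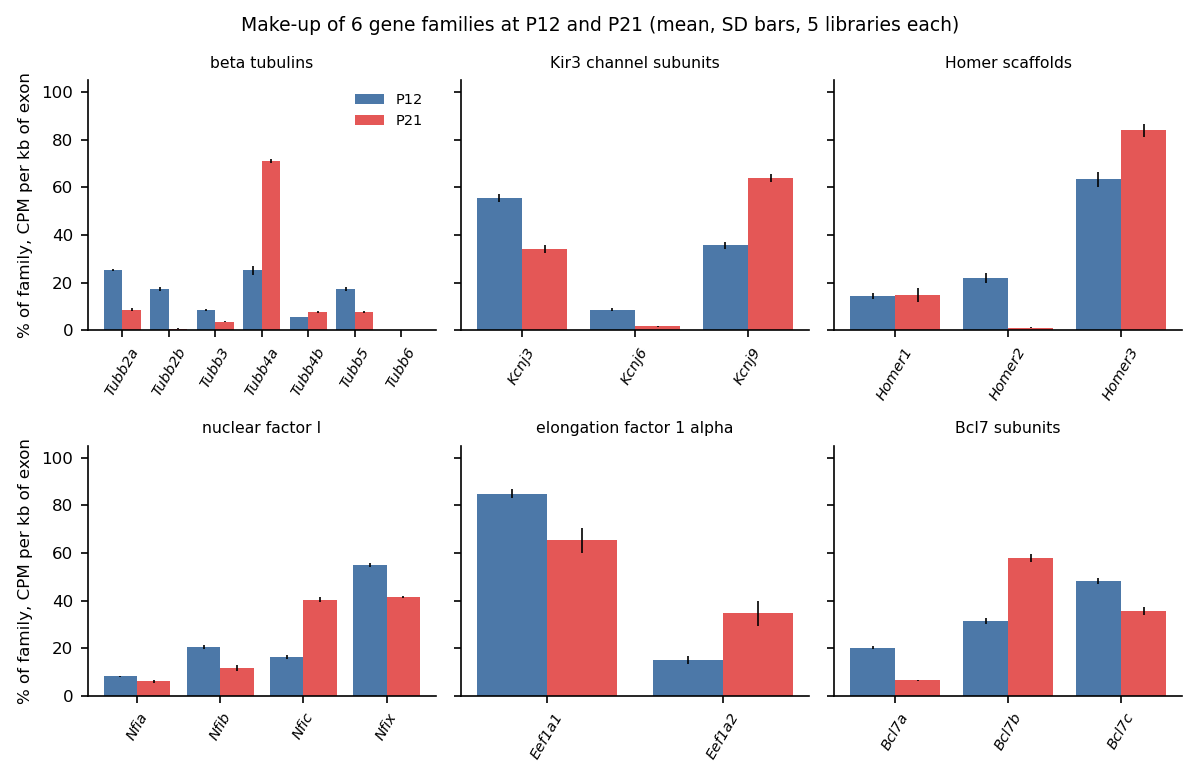
Share of each member in the summed CPM per kilobase of exon of its family (vertical axis, percent; bars are means and lines SDs over 5 libraries) at P12 and P21. Tubb4a rises to 71.1% of the beta tubulins, Kcnj9 to 64% of the Kir3 genes and Bcl7b to 57.9% of the Bcl7 genes, while Homer2 goes from 22.1% to 1.16% of the Homer genes.

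Of 27 calcium store and buffer genes 19 rose and 6 fell. Calb2, calretinin, the buffer of granule cells, stood at 583, 579, 313, 299 and 412 CPM in the P12 libraries and 1404, 1839, 1728, 1398 and 1336 CPM in the P21 libraries, without overlap (log2 fold change 1.82, SE 0.19, adjusted p = 5.9e-08). Cabp2 (2.33 to 26.7 CPM), Cabp1 (18.4 to 54 CPM), Vsnl1 (794 to 1913 CPM), the exchanger Slc8a2 (226 to 407 CPM) and the pump Atp2b3 (173 to 278 CPM) rose, and Hpca fell (208 to 109 CPM). This list also holds Pvalb (47.6 to 95.9 CPM) and Itpr1 (116 to 227 CPM), which are abundant in other cerebellar neurons, and the summed markers of Purkinje cells moved the same way (below), so the part of those cells in these 2 rises was not tested. Among 32 genes of G protein and cAMP signalling 18 rose and 7 fell. The adenosine receptor Adora1 (from 181 ± 36.9 to 542 ± 57.8 CPM), the adenylyl cyclases Adcy1 (1111 to 1879 CPM) and Adcy8 (7.17 to 22.3 CPM), and the endocannabinoid receptor Cnr1 of parallel fibres (210 to 301 CPM) rose. The regulatory subunits of protein kinase A moved in opposite directions, with Prkar2b down from 40.6 ± 3.01 to 6.42 ± 0.369 CPM and Prkar1b up from 135 ± 14.5 to 416 ± 13.3 CPM. Of 13 ion pumps and exchangers 7 rose and 1 fell: the sodium pump subunits Atp1b1 (445 to 979 CPM) and Atp1b2 (638 to 1079 CPM) rose, and Fxyd6 fell (530 to 215 CPM).

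Most activity-regulated genes rose. Of 20 immediate early and activity genes 17 rose, 14 of them at least 2-fold, and 1 fell, and for 17 the ages did not overlap. Over all genes 32.4% rose, 5.83% by at least 2-fold, 32.7% fell and 55.6% did not overlap. Without P21 libraries 2 and 3 the counts were 16 and 1. Fos was at 18.8, 29.7, 12.2, 12.1 and 15.2 CPM in the P12 libraries and 127, 301, 238, 88 and 112 CPM in the P21 libraries. The lowest P21 library lay above the highest P12 library, and P21 libraries 2 and 3 held 238 to 301 CPM against 88 to 127 CPM in the other 3. The rise was 3.31 (SE 0.67, adjusted p = 0.00044) with all 5 and without libraries 2 and 3 it was 2.63 (SE 0.70, adjusted p = 0.0053). Nr4a1 was at 91, 232, 210, 79.6 and 98.2 CPM in the P21 libraries against 22.8, 22.4, 16.9, 14.2 and 17.8 CPM at P12, and gave 2.92 with and 2.24 without the 2 libraries (adjusted p = 3.5e-08 and 5.3e-10). Npas4 gave 3.48 with and 2.63 without them (adjusted p = 3.8e-06 and 7.4e-05), and Egr1 1.72 and 1.33 (adjusted p = 0.049 and 0.19); its call was also lost in 9 of the 10 fits that left out 1 library. Fosb was at 0.456, 0.78, 0.333, 0.488 and 0.722 CPM in the P12 libraries and 4, 12.3, 8.03, 3.76 and 6.28 CPM in the P21 libraries, again highest in P21 libraries 2 and 3, and gave 3.65 with and 3.08 without them (adjusted p = 1.9e-05 and 0.00025). Nr4a3 rose with less spread between the P21 libraries (from 10.9 ± 2.52 to 81.3 ± 15.1 CPM, log2 fold change 2.91, SE 0.18, adjusted p = 1.2e-11). The 12 genes of this list that were at least 2-fold higher in the P21 input than in the P12 input included Fos (10.4 and 82.9 CPM) and Nr4a3 (8.25 and 66 CPM).

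Bdnf, the neurotrophin made in response to activity, was at 8.05, 5.77, 4.15, 5.08 and 5.47 CPM in the P12 libraries and 41.1, 44.4, 33.9, 53.7 and 53.3 CPM in the P21 libraries. The ages did not overlap, and the 7.93-fold rise (log2 fold change 3.0, SE 0.15, adjusted p = 2.3e-13) was 3.10 (SE 0.15) without those 2. Of 22 neurotrophin and growth factor receptor genes tested 9 rose and 10 fell (8 and 11 with library size alone). The neurotrophin receptors moved apart, with Ntrk3 up (26.6 to 52.6 CPM) and Ntrk2, the receptor of Bdnf (142 to 92.5 CPM), and Ngfr (3.25 to 0.324 CPM) down. The reelin receptors Lrp8 (178 to 62.8 CPM) and Vldlr (70.2 to 42 CPM) fell while their adaptor Dab1 rose (from 50.6 ± 3.99 to 120 ± 19 CPM). Of 19 clock genes 12 rose and 3 fell, against 32.4% and 32.7% over all genes. Nr1d1 (from 56.2 ± 5.41 to 148 ± 16.7 CPM), Per1 (40.7 to 91.3 CPM), Per3 (29.5 to 50.4 CPM) and Bhlhe40 (from 8.52 ± 0.812 to 34.9 ± 3.86 CPM) rose with Dbp, Tef and Hlf, and Arntl (from 71.4 ± 4.78 to 46.9 ± 3.4 CPM), Per2 (17 to 11.6 CPM) and the kinase Csnk1e (328 to 166 CPM) fell. The labels give no hour of collection.

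**Figure D4:**
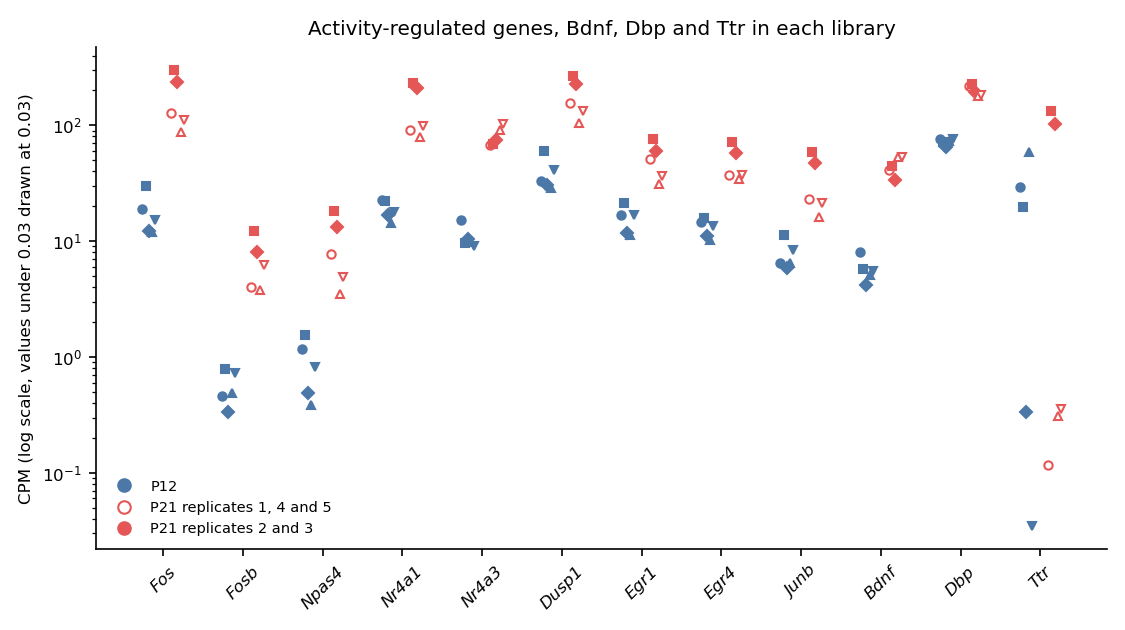
CPM in each library (log axis) for 9 activity-regulated genes, Bdnf, Dbp and Ttr; P21 libraries 2 and 3 are filled red, libraries 1, 4 and 5 open red and P12 libraries blue. Libraries 2 and 3 are the 2 highest P21 libraries for Fos, Fosb, Npas4, Nr4a1, Dusp1 and Ttr, and not for Nr4a3, Bdnf and Dbp.

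Of 45 nuclear genes of the respiratory chain 41 rose and 1 fell, with 40 and 3 under library size alone (median log2 fold change 0.67, against 0.00 over all genes, of which 32.4% rose). Cox8a, a subunit of complex IV, was at 1164, 1291, 1308, 1186 and 1271 CPM in the P12 libraries and 2086, 2779, 2754, 2315 and 2383 CPM in the P21 libraries, without overlap (log2 fold change 0.99, SE 0.08, adjusted p = 2.8e-10). Cox4i1 (1044 to 2103 CPM), Cox5b (535 to 1093 CPM) and Ndufs7 of complex I (155 to 358 CPM) rose, the succinate dehydrogenase genes Sdha to Sdhd rose by 0.27 to 0.55, and Atp5a1 fell slightly (from 1036 ± 27.1 to 896 ± 39.7 CPM). In the input 1 of the 45 was at least 2-fold higher. Of the coactivators, Ppargc1b rose (from 4.55 ± 0.431 to 11.3 ± 0.617 CPM) and Ppargc1a did not pass the test (from 30.1 ± 2.02 to 27.2 ± 4.08 CPM). Of 26 glycolysis genes 15 rose and 4 fell. The neuronal enolase Eno2 (658 to 1311 CPM), the aldolase Aldoa (936 to 1764 CPM) and the glucose transporter Slc2a3 (86.2 to 166 CPM) rose. Hk2, the hexokinase of progenitors, fell (from 27.1 ± 2.22 to 4.84 ± 0.213 CPM) while Hk1 did not pass the test (from 260 ± 19.8 to 285 ± 17.2 CPM).

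Of 22 cholesterol synthesis genes 13 fell and 3 rose, against 32.7% and 32.4% over all genes. Hmgcs1 was at 284, 269, 295, 347 and 306 CPM in the P12 libraries and 135, 106, 115, 116 and 115 CPM in the P21 libraries, with all P21 libraries below P12 (log2 fold change -1.36, SE 0.07, adjusted p = 4.1e-13). Sqle (115 to 58.2 CPM), Mvd (95.8 to 44.2 CPM) and Fdft1 (60.8 to 30.7 CPM) also fell, and the regulator Srebf2 did not pass the test (from 161 ± 4.1 to 142 ± 5.59 CPM). Of 34 lysosomal genes 16 rose and 4 fell, against 32.4% and 32.7% over all genes. Those that rose included Ctsb (202 to 429 CPM), Ctsd (110 to 176 CPM), Psap (515 to 941 CPM) and the master regulator Tfeb (from 5.63 ± 0.891 to 18 ± 3.01 CPM).

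Of 32 translation initiation and elongation factors 17 fell and 6 rose, against 32.7% and 32.4% over all genes. The elongation factor 1 alpha pair moved in opposite directions: Eef1a1 was at 3533, 3963, 4362, 3666 and 3507 CPM in the P12 libraries and 2165, 3166, 2894, 1998 and 2011 CPM in the P21 libraries, and Eef1a2 at 831, 766, 729, 770 and 796 CPM in the P12 libraries and 1576, 1521, 1362, 1404 and 1521 CPM in the P21 libraries. Eef1a1 fell and Eef1a2 rose without overlap (-0.64 and 0.92, adjusted p = 4e-05 and 5.4e-07), and Eef1a2 was 15.1% ± 1.7 at P12 and 34.7% ± 5.2 at P21 of the pair per kilobase. Eif4g2 (2133 to 1371 CPM) and Eif4a1 (595 to 372 CPM) fell and the neuronal Eif4a2 rose (813 to 1148 CPM). Of 58 cytosolic ribosomal protein genes 11 rose, 6 fell and 41 were not called. This balance depends on the libraries: it was 4 higher and 18 lower without P21 libraries 2 and 3, 5 higher and 13 lower with library size alone, and 18 higher without P12 library 3. Rpl10a, the gene of the tagged protein, was at 1402, 1833, 2056, 1558 and 1694 CPM at P12 and 1792, 1124, 1506, 1376 and 1658 CPM at P21 (adjusted p = 0.23). With library size alone Rpl10a was called lower (-0.35, edgeR, adjusted p = 0.033). Reads of the transgene cannot be told apart from those of the gene.

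Of 23 intrinsic cell death genes 12 fell and 6 rose, against 32.7% lower and 32.4% higher over all genes tested. Bid, which carries death receptor signals to mitochondria, was at 12.7, 11.3, 12.5, 12 and 11.4 CPM in the P12 libraries and 1.01, 1.34, 0.816, 0.901 and 1.12 CPM in the P21 libraries, with no overlap (log2 fold change -3.52, SE 0.11, adjusted p = 1.1e-16). Trp53 (26.9 to 10.4 CPM), Apaf1 (14.8 to 8.86 CPM) and Bcl2l11, the BIM protein (39.7 to 18 CPM), fell, and the protective Bcl2l1 (310 to 438 CPM) and Xiap (86.3 to 123 CPM) rose. The pro-apoptotic Bbc3 rose (22.3 to 40.4 CPM), and Bax did not pass the test (from 114 ± 5.46 to 130 ± 18.9 CPM). Among 18 chaperones 7 fell and 5 rose, with Hsp90ab1 (1302 to 732 CPM) and Hspa8 (1446 to 1087 CPM) lower and Cryab, also a product of oligodendrocytes, higher (14.8 to 76.9 CPM). Interferon and antigen presentation genes were low, with 5 of 17 lower and 3 higher.

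Markers of other cells moved in several directions, and their part in the results above was not tested. Summed over 8 Purkinje markers the libraries held 734 to 864 CPM at P12 and 1045 to 1271 CPM at P21, against 2938 and 4706 CPM in the inputs; 6 of the 8 rose and 0 fell (4 and 2 with library size alone). The sums over 8 interneuron markers were 162 to 208 and 224 to 305 CPM, over 12 oligodendrocyte markers 587 to 812 and 742 to 1248 CPM, and over 10 microglial markers 14.1 to 20.5 and 14.1 to 25.3 CPM. Those over 11 astrocyte and Bergmann glia markers were 409 to 499 and 310 to 380 CPM, and over 12 vascular and meningeal markers 50 to 69.5 and 26.9 to 47.5 CPM. Of the 12 oligodendrocyte markers 5 rose and 3 fell, and of the 11 astrocyte and Bergmann glia markers 2 rose and 6 fell. Over all genes 32.4% rose and 32.7% fell. Among those that fell were Fabp7, the lipid-binding protein of radial glia (from 104 ± 14.4 to 20.6 ± 3.49 CPM), and Pdgfra, of oligodendrocyte progenitors (from 17.6 ± 1.13 to 1.47 ± 0.148 CPM). The 4 unipolar brush cell markers summed to 491 to 798 and 1569 to 2032 CPM, of which Calb2, also a marker of granule cells, rose, while Eomes (from 80 ± 10.8 to 105 ± 36.5 CPM) and Lmx1a did not pass the test. Without P21 libraries 2 and 3 Eomes rose by 0.55 (edgeR, adjusted p = 0.024). It gave 0.41 with DESeq2 (adjusted p = 0.032) and 0.24 with library size alone (edgeR, adjusted p = 0.23). Of the 12 mature granule cell markers 9 rose and 3, Neurod1, Pax6 and Zic1, fell. Of the erythrocyte list only Hbb-bs and Alas2 were measured, at 4.99 to 15.8 and 36 to 73.1 CPM in all. No marker of these lists was at 0 in all 10 libraries.

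Long genes were over-represented among the falls. Genes of under 10 kb in span, from first to last annotated base, were at least 2-fold lower in 10.6% and at least 2-fold higher in 8.87% of 3787 cases, and genes of 300 kb or more in 26.1% and 4.8% of 521. The median log2 fold change fell from 0.15 to -0.34 over the same range. Classes were also formed by the observed over expected CpG of the RefSeq promoter window. The share at least 2-fold higher was smaller in each class with more CpG, from 11.9% of 705 genes under 0.2 to 3.74% of 4948 at 0.8 or more. The share at least 2-fold lower was 14.8% under 0.2, largest at 16.6% of 1610 genes from 0.4 to 0.6, and 9.09% at 0.8 or more. These are shares of genes in 1 set of libraries and carry no test.

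**Figure D5:**
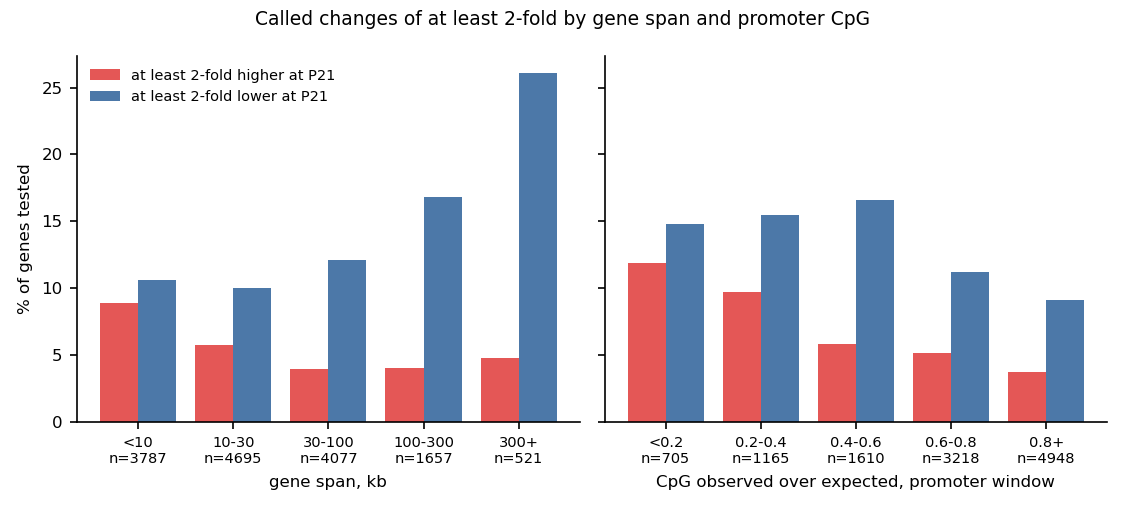
Percent of tested genes that were called and at least 2-fold higher (red) or lower (blue) at P21, by gene span in kb (left) and by CpG observed over expected in the promoter window (right), with the number of genes in each class. The share lower is largest, at 26.1%, in genes of 300 kb or more, and the share higher is largest, at 11.9%, in windows of the lowest CpG class.

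Whole cerebellum changed the same way for most genes that moved strongly. There is 1 input library per age, so no test is possible, and CPM ratios were counted. Of the 14752 genes compared in the inputs 528 (3.58%) were at least 2-fold higher at P21 and 1016 (6.89%) at least 2-fold lower. Of the 860 genes at least 2-fold higher in TRAP 846 were higher in the input, 354 of them (41.2%) by at least 2-fold and 0 lower by that much. Of the 1779 lower genes 1777 had an input value, of which 1676 were lower there, 883 (49.7%) by at least 2-fold, and 4 were at least 2-fold higher.

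How the later step differed from the step before was tested as a contrast of the 2 changes, P21 over P12 minus P12 over P7. The steps span 9 and 5 days and share the P12 libraries. The later change was more positive for 2483 genes (16.8%) and more negative for 2890 (19.6%). Some falls came mainly in the later step. Basp1 changed by -0.82 from P7 to P12 and -5.34 from P12 to P21, a difference of -4.53 (SE 0.28, adjusted p = 1.4e-10). Igfbpl1 changed by -0.59 and -8.10, a difference of -7.52 (SE 0.42, adjusted p = 1.3e-10), and Robo2 by -0.15 and -2.99, a difference of -2.84 (SE 0.21, adjusted p = 1.6e-09). For both anchor receptor genes the rise before P12 was the larger: Gabra6 changed by 3.84 and then 0.99, a difference of -2.84 (SE 0.47, adjusted p = 0.00014), and Grin2c by 5.51 and 2.05, a difference of -3.46 (SE 0.32, adjusted p = 8.4e-08). Tesc changed by 3.14 (SE 0.09) in the early and 3.14 (SE 0.08) in the later step, a difference of 0.00. Other genes were higher at P12 than at P7 or P21. Grin3a changed by 1.48 and then -1.85, a difference of -3.33 (SE 0.21, adjusted p = 9.1e-11), the T-type channel Cacna1g by 1.82 and -0.77, a difference of -2.59 (SE 0.28, adjusted p = 4.2e-07), and the vesicle protein Synpr by 1.35 and -0.63, a difference of -1.98 (SE 0.23, adjusted p = 7.2e-07). Irx3 and Scx had their rise in the later step, at 0.55 and 3.05 and at 0.47 and 3.54, with differences of 2.50 (SE 0.30, adjusted p = 1.3e-06) and 3.08 (SE 0.40, adjusted p = 4.3e-06). In the cytosolic ribosomal protein list the later change was more positive for 33 of 58 genes and more negative for 0, with list medians of -0.43 from P7 to P12 and 0.11 from P12 to P21. These values are from the main fit only, and the later change of this list depends on the libraries and the scaling used (above).

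Over the 15 Neurod1 TRAP libraries of P7, P12 and P21, the genes whose log2 CPM was most like that of Gabra6 included Wnt7a (Pearson r = 0.997), B4galt6 (0.997), Lgi1 (0.997) and Ocln (0.996). Those most like Dcx were Dpysl3 (0.999), Fnbp1l (0.999), Zmat4 (0.998), Sox11 (0.998) and Sh3bp4 (0.998). The libraries fall into 3 ages, so these values describe the order and spacing of the ages and carry no test. Wnt7a, a signal by which granule cells shape mossy fibre terminals, was at 84.9, 94.1, 78.9, 85.6 and 95.4 CPM in the P12 libraries and 210, 198, 211, 235 and 223 CPM in the P21 libraries, and it rose (log2 fold change 1.30, SE 0.15, adjusted p = 1.7e-07). Fnbp1l, a membrane-bending partner of actin assembly, was at 87, 88.2, 89.4, 99.2 and 91.1 CPM in the P12 libraries and 3.23, 5.16, 4.42, 2.86 and 2.74 CPM in the P21 libraries, and it fell (log2 fold change -4.63, SE 0.12, adjusted p = 4.2e-18). For both genes the ages did not overlap.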

How the data were processed

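The authors deposited 1 table of estimated counts per gene, in whole numbers and not normalized; per the submitters' processing notes Salmon 0.8.2 and the build mm10 were used, with their roles, the annotation and any rounding not given in the sources used here. Of its 24100 genes 24045 were matched to a symbol; the other 55 hold 0.0278% of the counts. Estimated counts can move between near-identical genes, and the labels name no molecular identifiers. Libraries were grouped by their labels. All 19 TRAP libraries were fitted together in edgeR 4.0.16 (R 4.3.3): genes passed filterByExpr with at least 10 counts in enough libraries and 15 in total, libraries were scaled by TMM, and the robust quasi-likelihood fit gave two-sided p-values adjusted by Benjamini-Hochberg. The script was tested on simulated data. Levels per kilobase use union exon lengths of GENCODE M21 (GRCm38). The gene lists came from general knowledge, and members, lists and the naming rule were chosen with earlier results of these data known. Named are 6 anchors, the 15 largest rises and falls with at least 10 CPM and no overlap, genes switched off, the steadiest and the largest gains and losses, list members, and 5 genes most like Gabra6 and Dcx; Ttr, Scg5, Eif4a3l1, the families whose shares are given and the promoter motifs were picked with their values in view. Replicate numbers did not pair the ages: the deviations of same-numbered libraries correlated at -0.0941 to 0.197. Replicates differed beyond sampling noise, so no library was counted as a copy. Alternatives were library size only, DESeq2 1.42.0, no filter, fits of 10 or 15 libraries, a replicate block and leaving out each library, and, added after seeing the data, leaving out P21 libraries 2 and 3. Some genes that the naming rule gives are not reported here.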

Additional observations from a re-analysis of the deposited data

Results flagged for a closer look

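In 5 of the 86 sets of 5 libraries examined (5.81%), 1 library lay far from the other 4, and chance alone marks about 1 set in 20. The summed Purkinje markers were 1045 CPM in P21 library 5, against 1211 to 1271 CPM in the others. The summed mature granule cell markers were 11814 CPM in P12 library 3, against 12524 to 12778 CPM. Aurkb, a mitotic kinase, was at 0.251 CPM in P21 library 3, Layn, a hyaluronan receptor, at 2.36 CPM in P12 library 1, and Tesc at 31 CPM in P12 library 4.

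For 26 of the genes named as anchors or as the largest rises and falls, the later change differed from the earlier one by the test of the difference (edgeR, adjusted over all genes), given here as the log2 change from P12 to P21 minus that from P7 to P12. Genes with a more negative later step were, among neuronal genes, Igfbpl1 (-7.52), Cd24a (-5.33), Nhlh1 (-5.08), Tox3 (-4.78), Insm1 (-4.52), Dcx (-4.03), Grin2c (-3.46), Gabra6 (-2.84), Cabp2 (-2.15) and Neurod1 (-0.41). Among genes of progenitors and the cell cycle they were Atoh1 (-5.55), Pimreg (-4.65), Pbk (-3.97), Aurkb (-3.75), Ccnb1 (-3.74), Cdk1 (-3.37), Pclaf (-3.33), Uhrf1 (-3.11), Top2a (-3.02) and Mki67 (-2.89). For genes near 0 CPM at P21, Atoh1 foremost, the size depends on the prior count of the fit. Genes with a more positive later step were Scx (3.08), Irx3 (2.50), Aqp6 (1.75), Nr4a1 (1.36), Atoh7 (1.30) and Bdnf (1.01).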

How the results depend on the processing

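Scaling by library size alone gave 570 genes at least 2-fold higher in place of 860, and 1600 in place of 2483 with a more positive later step; the other counts over all genes stayed within 1.5 times under every alternative run. Leaving out 1 library at a time gave 4461 to 4700 genes higher, 4583 to 4822 lower, 798 to 876 at least 2-fold higher and 1747 to 1843 at least 2-fold lower, and 1952 to 2419 with a more positive and 2486 to 3121 with a more negative later step. Without P21 libraries 2 and 3 together, 4316 genes rose and 4595 fell. With a replicate block on the 10 libraries 5056 genes rose and 5114 fell; 2 of 5 libraries correlated best with their own number, so the block rests on a shared number only. Of the named genes, Ckb changed by -0.01 in place of 0.14 under library size alone, and Ttr by -6.31 in place of 1.11 without P21 libraries 2 and 3, the 2 P21 libraries in which it was high. Counts near 0 limit the folds of the cell cycle genes at P21. Of the called genes named, 6 lost their call when 1 library was left out: Egr1 in 9 of the 10 cases (1.51 to 1.81 on the log2 scale in those without a P21 library), Scg5 in 7 (0.61 to 0.83), Ywhaz in 5, Gria4 in 4 (P12 libraries 1 and 3, P21 libraries 1 and 5; 0.28 to 0.31), Zic1 without P12 library 4 (-0.18) and Ckb without P21 library 2 (0.11). Under library size alone Cacna1a (0.30), Gria4 (0.17), Homer3 (0.13) and Cadm3 (0.20) also lost theirs. Calls were also gained by genes not called in the main fit. Dclk1, Kif5a, Kif5c and Eomes rose without P21 libraries 2 and 3. Under library size alone those gained included falls of Ccnd1 (-0.38), Srebf2 (-0.34), Ppargc1a (-0.30), Rpl10a (-0.35), Cadps2 (-0.26) and Ywhag (-0.23). With DESeq2 they included rises of Barhl2 (0.20), Bax (0.21), Cplx1 (0.14), Kif5c (0.17) and Eomes (0.41). The ribosomal protein genes that rose were 18 in place of 11 without P12 library 3, and 21 rose and 10 fell with the replicate block.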
